A study of Caenorhabditis elegans with 6 samples.

Results

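Open chromatin on the X chromosome of Caenorhabditis elegans was described from ATAC-seq peaks, the places where the Tn5 transposase cut accessible DNA most often. A site here is an interval of X formed by joining all peaks of both deposited peak lists that overlap by at least 1 bp. The lists held 471 peaks on X among 2313 in the list labelled neuronal and 512 among 2683 in the list labelled total. Joined, they gave 527 sites on X of 2773 in the nuclear genome, and the other 2246 lay on the 5 autosomes. Among the deposited peaks, which had passed the authors' reproducibility threshold, membership rests on the chromosome alone.

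All animals were of the strain OH11061, carried the transgene otIs381 and were collected at mixed stages, mostly as larvae. The transgene puts GFP into the nuclei of neurons under a promoter of ric-19, an autosomal gene, so the neuronal gate depends on that promoter's activity. The neuronal group held nuclei positive for GFP and for the DNA stain DAPI, and the total group held nuclei positive for DAPI, which include the neuronal ones. Each group had 3 samples of 50000 nuclei, and 1 peak list was deposited per group. The lists give no value per sample, so replicate spread is unknown for every value that follows and no test was run. Intervals are 95% intervals that cover counting error only, exact except for ratios and differences between X and the autosomes. Those carry the error of the X value alone, with the autosomal value held fixed, and so are too narrow. Sites on 1 chromosome are not replicates, and chromosomes are compared as they stand, with the range over the autosomes as the yardstick.

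C. elegans hermaphrodites carry a pair of X chromosomes and males a single one. A dosage compensation complex binds both X chromosomes of hermaphrodites and lowers transcription from each. X carries few genes of germline and ribosomal function and a large part of the animal's tRNA genes. RNA polymerase III transcribes tRNA genes from promoter elements inside the gene, and such genes are known as short nucleosome-depleted stretches in many eukaryotes. How reads were assigned among tRNA genes, which exist as near-identical copies, is not stated by these sources, so the value of a single copy is uncertain. DNA sequence under the sites was not analysed here.

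X held 19.0% of all sites (17.6% to 20.5%), against 17.7% of the annotated length and 13.7% of the protein-coding genes. Its density was 29.7 sites per Mb (27.3 to 32.4), between that of chromosome III, 35.0, and that of chromosome V, 19.5. Over all autosomes the density was 27.2 per Mb (26.1 to 28.4), and the intervals of both densities overlapped. The ratio of X to autosomes was 1.09 (1.00 to 1.19, with the autosomal density held fixed). X is gene-poor, and counted per 1000 protein-coding genes it had 193 sites, above the 81.7 to 183 of the single autosomes. These counts include sites over tRNA genes. The sites covered 457 kb of X, or 2.58% of its length, against 2.67% of the autosomes.

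Sites over tRNA genes set X apart from every autosome. Of the 527 X sites, 154 overlapped a tRNA gene, a share of 29.2% (25.4% to 33.3%), against 215 of 2246 autosomal sites or 9.57% (8.39% to 10.9%). X had 8.69 such sites per Mb (7.37 to 10.2), and the autosomes had from 2.36 to 3.12. The annotation places 276 of its 612 tRNA genes on X, at 15.6 genes per Mb against 4.07 on the autosomes. A tRNA gene on X was as often inside a site as one elsewhere, in 209 of 276 cases (75.7%, 70.2% to 80.7%) against 257 of 336 (76.5%, 71.6% to 80.9%).

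Without the sites that overlap a tRNA gene the order per Mb turned. The remaining 373 X sites had a density of 21.1 per Mb (19.0 to 23.3), below the 24.6 (23.5 to 25.7) of the autosomes. The ratio was 0.856 (0.771 to 0.947, with the autosomal density held fixed). Among single chromosomes, V was lower still at 17.1 per Mb, and II and IV stood at 23.8. Counted by gene, X no longer led, with 373 such sites for 2730 protein-coding genes. Chromosome III had 440 for 2642. This split was chosen after the values were seen.

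**Figure D1:**
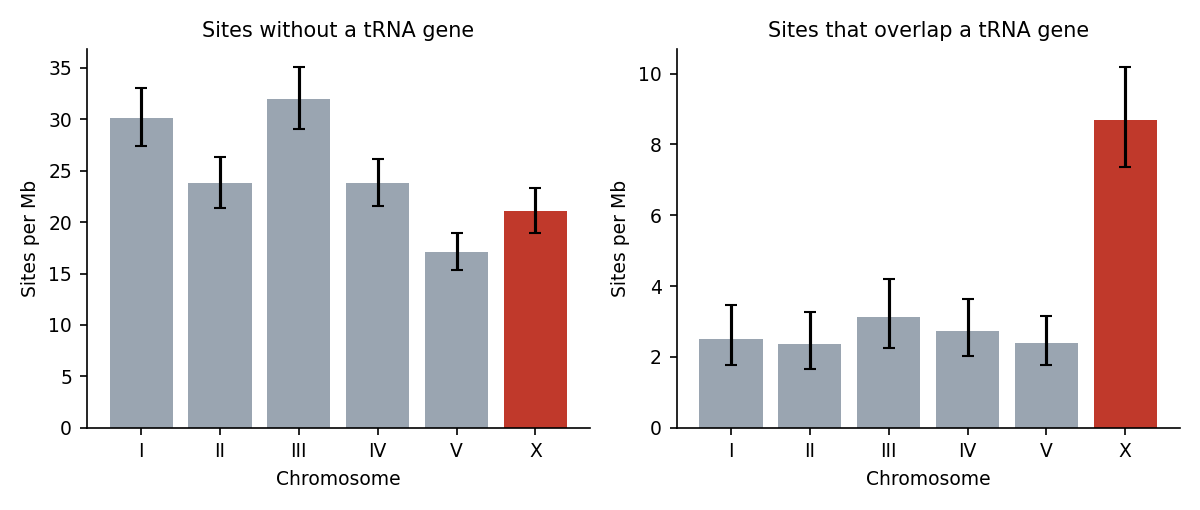
Sites per Mb on each chromosome, for sites that overlap no tRNA gene (left) and sites that overlap a tRNA gene (right); bars are counts over annotated length and error bars exact Poisson 95% intervals of the count. Without tRNA genes X stood at 21.1 per Mb, between V (17.1) and the other autosomes, and with tRNA genes it stood at 8.69 against 2.36 to 3.12.

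The summits of these sites lay on or beside the tRNA gene itself. In all 154 X sites the summit was within 200 bp of a tRNA gene, with a median distance of 15.5 bp, and in 97.2% of the autosomal ones, with a median of 19 bp. Most held 1 tRNA gene (113 sites), 31 held 2, 8 held 3 and 2 held 5. Both sites with 5 were within genes. One lay in K01A12.3 (chrX:8623400-8624770, ce11, 1371 bp), with a fold enrichment over local background of 10.7 in the neuronal and 10.4 in the total list. The other lay in ajm-1, which encodes a protein of the apical junction of epithelial cells (chrX:9090475-9092060), with folds of 9.39 and 9.21. Both pairs of folds were below the X medians of 11.5 and 11.8.

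The tRNA genes of X were placed differently from those of the autosomes, yet entered sites at a like share in either place. Within a protein-coding gene lay 96 of 276 on X (34.8%) and 195 of 336 on the autosomes (58.0%). On X, 78.1% of those within a gene (68.5% to 85.9%) and 74.4% of those outside (67.4% to 80.6%) were in a site. On the autosomes the shares were 75.4% and 78.0%.

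Genes of the small nucleolar and nuclear RNAs showed another pattern. Of the X sites 5 overlapped a snoRNA gene (0.949%, 0.309% to 2.20%), against 115 autosomal sites (5.12%), and 5 of the 33 snoRNA genes of X were in a site (15.2%, 5.11% to 31.9%) against 119 of 313 (38.0%, 32.6% to 43.6%). No X site overlapped an snRNA gene. That is 0 of 527 sites, which allows a share of up to 0.698%, and X has just 3 of the 129 annotated snRNA genes. Genes annotated as ncRNA overlapped 179 X sites (34.0%, 29.9% to 38.2%) and 492 autosomal sites (21.9%). Many of these sites also held a tRNA gene. Of the 373 X and 2031 autosomal sites without a tRNA gene, 80 and 342 overlapped a gene annotated as ncRNA. The genes annotated as ncRNA are dense on X, with 142 per Mb against 63.5, and 10.5% of them were in a site on X against 12.7% elsewhere.

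Along X, sites were spread from end to end. The median distance between midpoints of neighbouring sites was 21.9 kb (19.3 to 24.8), and the central 50% of distances ran from 9.59 to 43.8 kb. On the autosomes the median was 23.6 kb (22.4 to 25.1), from 20.3 on III to 33.3 on V. Neighbours closer than 2 kb made up 4.18% of X pairs (22 pairs) and 4.86% of autosomal pairs. Distances over 100 kb made up 5.70% (30 pairs) and 6.92%. Without the sites over tRNA genes the median distance on X was 31.7 kb (26.8 to 35.1) against 25.8 kb on the autosomes.

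The centre of X held a smaller share of its sites than the centres of the autosomes did. Cut into 3 stretches of equal length, X had 165, 170 and 192 sites. The central stretch thus held 32.3% (28.3% to 36.4%), against 38.0% (36.0% to 40.0%) on the autosomes, where single chromosomes ranged from 37.3% to 38.6%. It held 35.8% of the protein-coding genes on X and 38.1% on the autosomes. The tRNA genes of X were uneven, with 51, 107 and 118 in the 3 stretches, and sites over them numbered 29, 56 and 69. Sites without a tRNA gene numbered 136, 114 and 123.

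In 20 bins of equal length the number of sites ran from 19 to 44. The highest bin, from 75% to 80% of the length, had 20 of its 44 sites over a tRNA gene and held 34 tRNA genes. The bin with most tRNA genes, 42 between 45% and 50% of the length, had 27 sites, 14 of them over a tRNA gene.

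**Figure D2:**
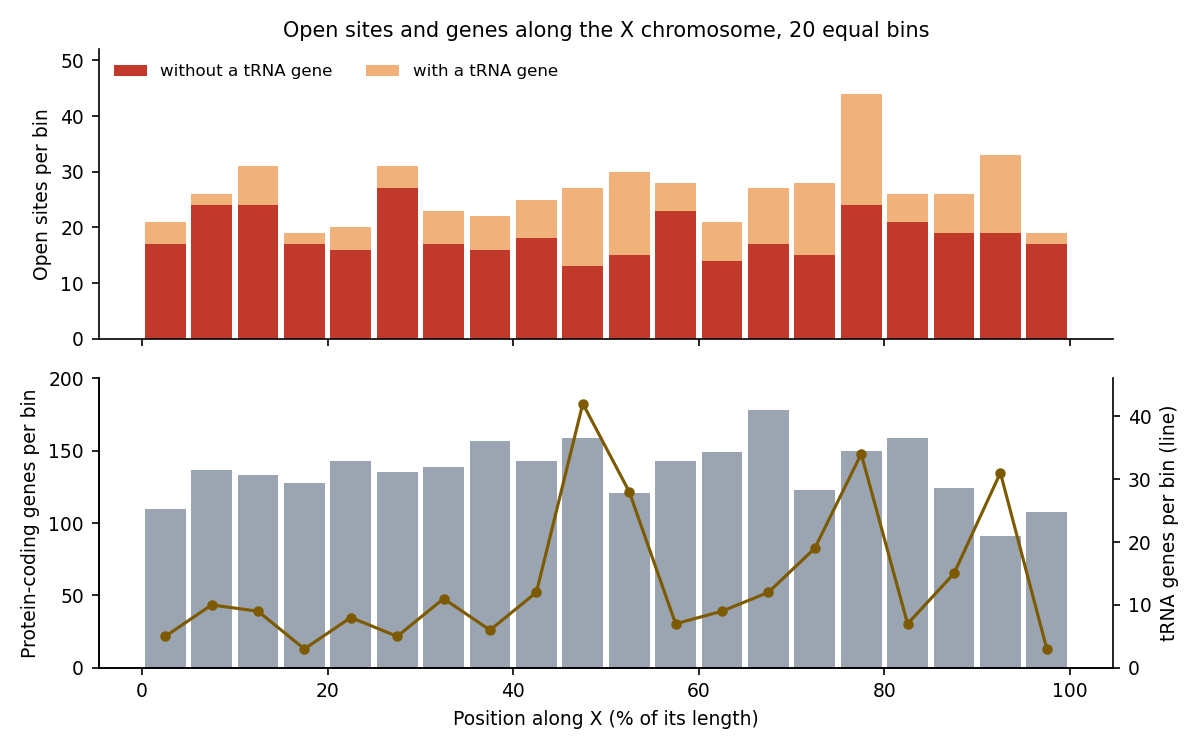
Counts in 20 equal bins along X, with open sites split into those without and with a tRNA gene (top) and protein-coding genes as bars with tRNA genes as a line (bottom, own axis). Sites ran from 19 to 44 per bin, and the highest bin, at 75% to 80% of the length, also held 34 tRNA genes.

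The longest stretch of X without a site lay between the site nearest ZK380.4 and the one nearest T26C11.4 (chrX:1644180-1837520). It spanned 193 kb and contained 33 protein-coding and 2 tRNA genes. Next came 181 kb with 20 protein-coding genes between C05D9.7 and inso-1 (chrX:1120767-1302039), and 174 kb with 19 between acl-1 and nhx-1 (chrX:15849941-16024428). The lists keep only peaks that passed that threshold of the authors, so a stretch without a site is not shown to be closed.

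At the other extreme, 5 windows of 100 kb held 9 sites each. The first (chrX:6207308-6296878) had 3 sites over tRNA genes and lay around lite-1, a light receptor gene, lev-9, a gene of acetylcholine receptor clustering in muscle, and mom-1, a Wnt secretion gene, with T13C5.6, got-2.2 and W05H9.4. The second (chrX:13653046-13739821) had 5 and lay around adm-2, a gene of the ADAM protease family, C40C9.4, C04A11.5, gck-4, K11E4.1 and pix-1. The third (chrX:13917169-14017143) had 1 and lay around alg-1, an Argonaute gene of the microRNA pathway, with ekl-5, meg-2, pqn-39, F48F7.6, C31E10.5 and C04C11.25.

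Most of the 20 strongest sites of X covered tRNA genes. Each peak carries the authors' fold enrichment over local background, and sites were ordered by the higher fold of both lists. Of the 20 highest X sites 12 overlapped a tRNA gene (60%), and of the 20 highest autosomal sites 2 did (10%), where the shares over all sites were 29.2% and 9.57%. Among the 50 highest the counts were 22 and 5, and among the 100 highest 36 and 14. On X the share thus came nearer to that over all sites. All of the 100 highest X sites were in both lists. Taken over all chromosomes, X held 3 of the 20 highest sites, 17 of the 50 highest (34%, 21.2% to 48.8%) and 56 of the 200 highest (28%, 21.9% to 34.8%).

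The highest site of X (chrX:1880520-1881277, ce11) had a fold of 26.4 in the neuronal and 28.2 in the total list. The highest autosomal site reached 51.9. It covered the tRNA gene Y59E1B.t2 and was 11280 bp from the nearest end of a protein-coding gene, B0294.3. The third highest lay inside sulp-3, a gene of the sulfate permease family (chrX:8404016-8404758), over the tRNA gene F41D9.t3, with folds of 22.4 and 23.6. A site inside C03B1.2 (chrX:6370863-6372023) covered sup-7, a tryptophan tRNA gene known from its amber suppressor allele, with folds of 19.5 and 21.3. Other sites of the 20 over tRNA genes were nearest to T24D5.1 (21.4 and 22.4), hrg-11.4 (21.1 and 21.8), F15G9.5 (19.8 and 21.5, inside the hemicentin gene him-4), the nuclear receptor gene nhr-255 (18.7 and 21.5), dyc-1, a gene of the dystrophin complex in muscle (20.4 and 21.2), C04A11.5 (19.8 and 21.1), F56C3.10 (20.0 and 20.7), the astacin protease gene nas-10 (20.2 and 20.5) and C40H5.2 (19.0 and 20.4).

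The remaining 8 of the 20 held no tRNA gene, and 6 of them had their summit near a gene end, that is at most 1000 bp outside. The site 94 bp outside dhhc-9, of a palmitoyltransferase family (chrX:2401732-2402444), had folds of 22.3 and 24.4, the second highest on X. A site 303 bp outside dpy-23, which encodes the mu subunit of the clathrin adaptor AP-2 (chrX:4388337-4389421), had 20.0 and 20.7. The site at dpy-22, which encodes the Mediator subunit MED12, had 18.9 and 20.4 (chrX:9822108-9823182). At eor-2, a gene acting with EGF and Ras signalling, the values were 19.1 and 20.2 (chrX:14602301-14603280). The sites nearest to mgrn-1, a RING ubiquitin ligase gene (19.6 and 21.4), adm-2 (18.8 and 20.7), T26C11.4 (20.1 and 22.0) and F52G3.1 (19.1 and 20.5) complete the 20. In all 20 the fold was lower in the list labelled neuronal, and folds of lists with other depth and background are not on 1 scale.

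Peaks on X had higher folds than autosomal peaks in both lists. In the list labelled neuronal the median was 11.5 (11.0 to 12.1) on X and 10.3 (10.1 to 10.4) on the autosomes, where single chromosomes ranged from 9.91 to 10.7. In the list labelled total it was 11.8 (11.5 to 12.4) against 10.4, with a range from 9.93 to 10.6. The differences were 1.24 (0.768 to 1.79) and 1.45 (1.13 to 2.01), with the autosomal medians held fixed. The lowest folds on X were 3.98 and 3.92 in these lists, and no X peak lay under a fold of 2, while 10 autosomal sites did.

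The medians were also taken with sites split by tRNA gene. Among sites without one, the medians were 11.3 on X and 10.1 on the autosomes in the list labelled neuronal, and 11.6 and 10.2 in the list labelled total. For sites over tRNA genes X and the autosomes were close, with 12.4 (11.2 to 13.0) and 12.1 (11.4 to 12.5) in the list labelled neuronal.

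Among the 10% of peaks with the lowest fold, 11.7% (7.85% to 16.5%) were on X in the list labelled neuronal and 8.58% (5.52% to 12.6%) in the other list. Among the 10% with the highest fold the shares were 27.2% (21.5% to 33.4%) and 29.4% (24.0% to 35.2%).

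**Figure D3:**
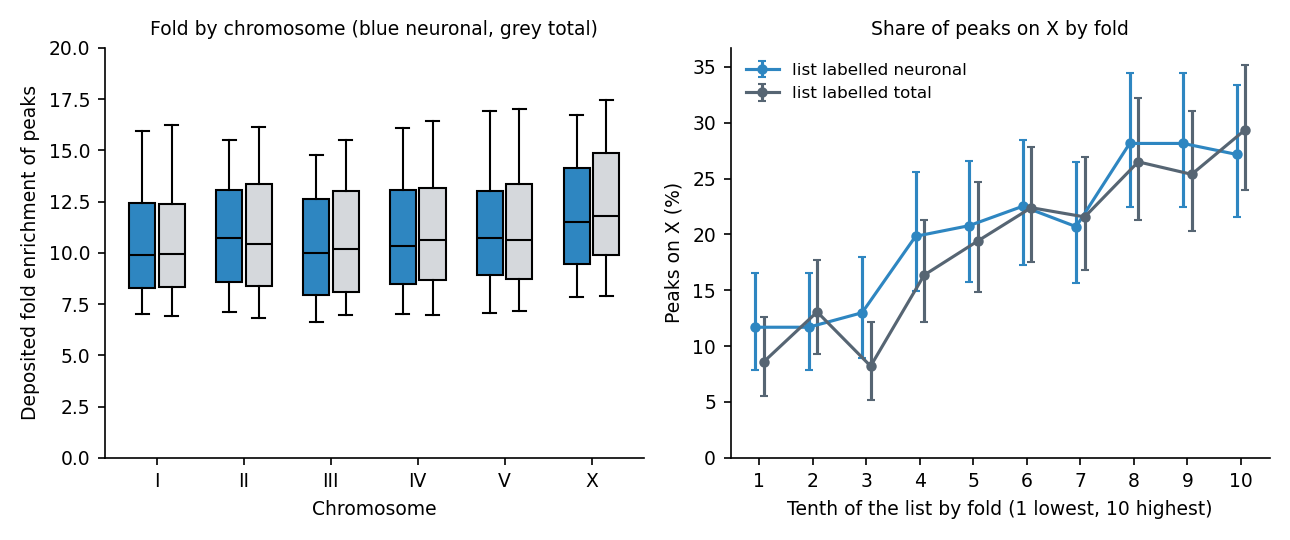
Left, the authors' fold enrichment of peaks by chromosome and list, as boxes from the 25th to the 75th percentile with the median as a line and whiskers at the 10th and 90th. Right, the share of peaks on X in 10 equal groups of a list ordered by fold, with exact binomial 95% intervals: 11.7% in the weakest and 27.2% in the strongest group of the list labelled neuronal, 8.58% and 29.4% for the other list.

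The fold compares reads piled up at the summit with the local background, and both were recovered from the deposited fold and p-value (under default peak caller formulas, an assumption). The pileup on X was close to that of the autosomes. Its median was 1900 reads (1813 to 1972) against 1925 in the list labelled neuronal, and 1230 (1172 to 1266) against 1201.5 in the list labelled total. The local background had a lower median on X than on any autosome. Its median was 162 reads (156 to 168) on X and 191 over the autosomes, with 174 on V as the lowest single autosome, in the list labelled neuronal. In the list labelled total it was 100.04 (97.7 to 103) against 117, with 108 on V (102 to 113), an interval that overlapped that of X. At sites over tRNA genes the medians on V, 141 and 89.8 in these lists, were below the 160 and 98.7 on X, with overlapping intervals.

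The higher fold on X thus went with fewer background reads and a like number of reads at the summit. The peak caller's background cannot go below a genome-wide floor, which 9.77% of X peaks (7.24% to 12.8%) and 6.19% of autosomal peaks reached in the list labelled neuronal. On V the share was 10.4%. What sets the local background was not tested.

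**Figure D4:**
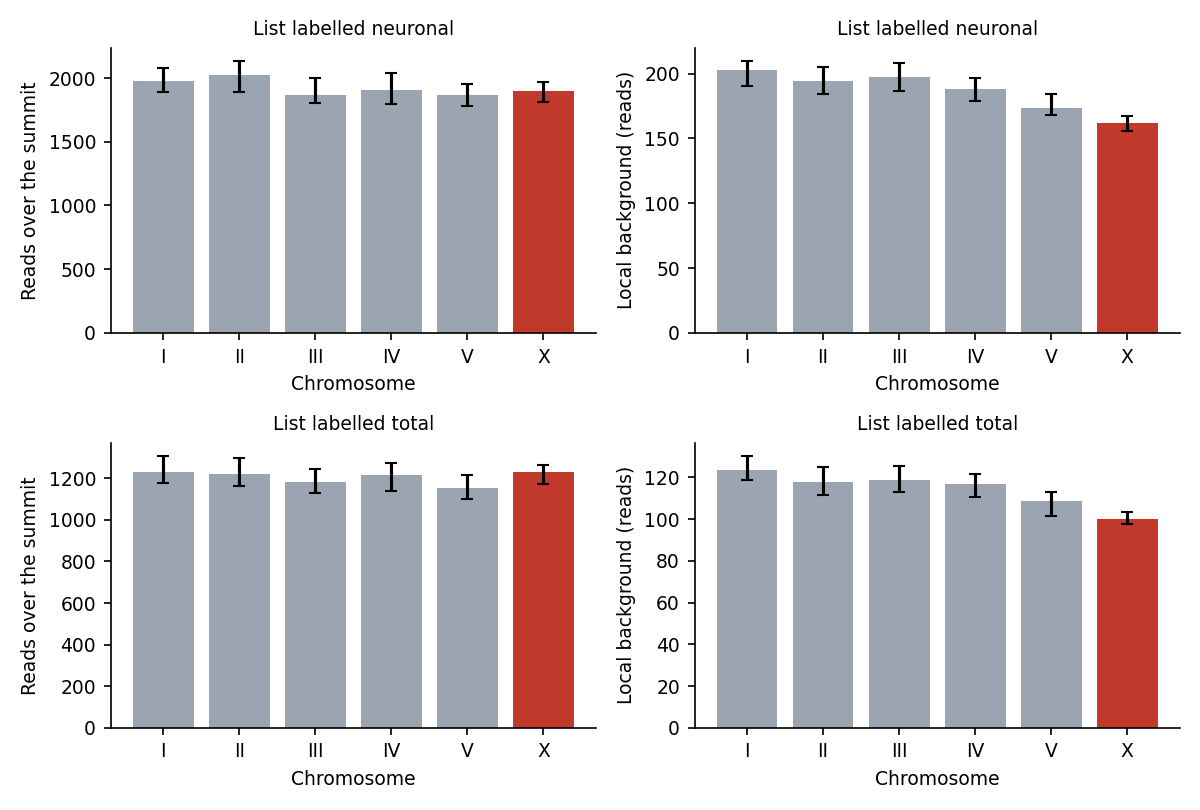
Median reads over the summit (left) and median local background (right) of peaks by chromosome, for the list labelled neuronal (top) and the list labelled total (bottom), with exact order-statistic 95% intervals. Summit reads on X (1900 and 1230) lay among the autosomes, and the median background on X (162 and 100.04) lay below all of them. In the list labelled total its interval overlapped that of V.

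X peaks had a lower median width than autosomal peaks, though not in every subset, and wide ones were fewer. Median peak widths were 779 bp on X and 809 bp on the autosomes in the list labelled neuronal, a difference of -30 bp (-57 to -11), and 784.5 and 834 bp in the list labelled total, a difference of -49.5 bp (-64 to -22). These intervals carry the error of the X median alone. With only peaks at the highest reproducibility score (1000) the interval included 0 in the list labelled neuronal (-21 bp, -47.5 to 5.5). It did not in the other list (-46.5 bp, -62.5 to -12.5). In the 50% of peaks with the higher fold it included 0 in both, with -3 bp (-25 to 33) and -13 bp (-40.5 to 20.5). Peaks over 1200 bp made up 10.2% of X peaks (48) and 20.0% of autosomal peaks in the list labelled neuronal, and 8.79% (45) and 22.0% in the list labelled total. The lowest share on a single autosome was 19.3%.

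The scarcity of wide sites was seen near gene ends. A summit was called near a gene end when it lay up to 1000 bp outside, or up to 200 bp within, the nearest end of a protein-coding gene; 5′ and 3′ ends were not separated. Of the X sites near a gene end, 37 of 301 were over 1200 bp (12.3%, 8.80% to 16.5%), against 459 of 1373 on the autosomes (33.4%, 30.9% to 36.0%), where single chromosomes ranged from 28.9% to 36.3%. Among those without a tRNA gene the shares were 10.2% and 33.8%. Inside genes the order was the other way, with 19.8% on X (12.0% to 29.8%) and 12.6% on the autosomes (9.70% to 15.9%), and the intervals overlapped. There 58.1% of the X sites covered a tRNA gene, and without those the shares were 13.9% and 12.7%. Outside genes at 1 to 5 kb the shares were 5.13% and 9.07%.

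**Figure D5:**
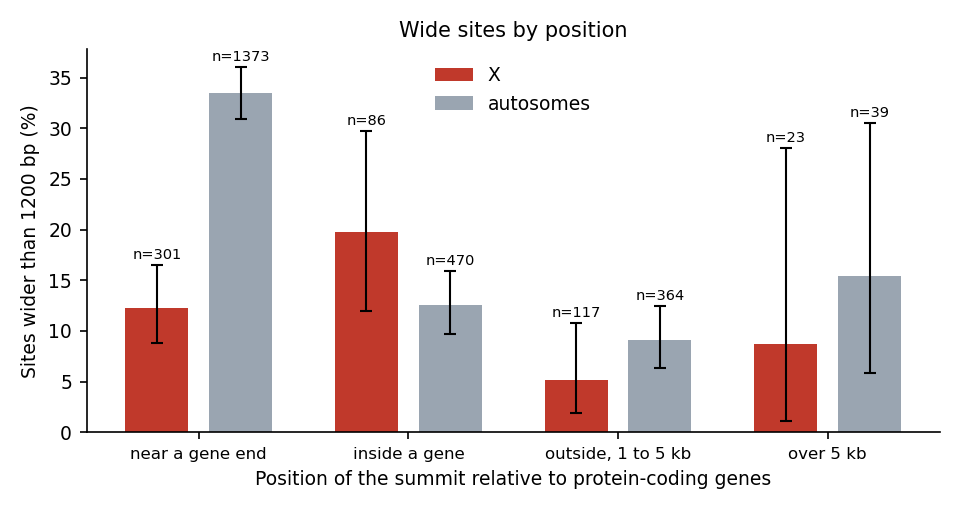
Share of sites wider than 1200 bp on X and on the autosomes by the position of the summit, with exact binomial 95% intervals and the number of sites above each bar. Near gene ends the share was 12.3% on X and 33.4% on the autosomes, and in the other positions the intervals overlapped.

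The widest X site (chrX:10476679-10479925, 3247 bp) covered C39B10.7, with low folds of 4.85 and 4.98. The next site along X is that of elt-2, which encodes the GATA factor of the intestine (chrX:10480280-10480929, folds 5.89 and 5.59). The next in width were at R04D3.2 (2077 bp, 2 tRNA genes, folds 10.9 and 11.4), mai-1 (2036 bp, 6.45 and 7.67), the collagen gene col-181 (2009 bp, over the tRNA gene W03G11.t1, 16.8 and 18.5) and, 6528 bp from the epsin gene rsd-3, a site of 1919 bp (10.7 and 10.2) that overlapped the microRNA genes mir-239.1 and mir-239.2. Width and fold were thus not ordered alike among the widest sites.

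Summits of X sites, inside or outside genes, were farther from the nearest end of a protein-coding gene than those of autosomal sites. The median distance from summit to nearest gene end was 640 bp (553 to 762) on X and 402 bp (370 to 442) on the autosomes, where single chromosomes ranged from 326.5 to 514 bp. Near a gene end lay 301 X sites (57.1%, 52.8% to 61.4%) and 61.1% of autosomal sites (59.1% to 63.2%). That window takes up 30.4% of the length of X and 37.5% of the autosomes. Without sites over tRNA genes the shares were 65.4% (60.3% to 70.2%) and 64.0% (61.9% to 66.1%). The median distances were then 498 bp (404 to 604) on X and 365 bp (337 to 400) on the autosomes. Chromosome IV, at 464.5 bp (399 to 599), had an interval that overlapped that of X. Sites over tRNA genes were near a gene end in 37.0% of cases on X and 34.0% on the autosomes.

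Fewer X summits lay within genes, 113 or 21.4% (18.0% to 25.2%) against 28.3% (26.5% to 30.2%), and genes cover 54.4% of X against 63.5% of the autosomes. Correspondingly, 117 X sites (22.2%, 18.7% to 26.0%) against 16.2% lay outside genes at 1 to 5 kb from an end, and 23 (4.36%, 2.79% to 6.48%) against 1.74% lay farther than 5 kb. The most distant was 13825 bp from nhr-1, a nuclear receptor gene (chrX:17505507-17506295, folds 14.0 and 16.4).

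The fold difference between X and the autosomes was seen near gene ends. In the list labelled neuronal the median fold there was 11.7 (11.3 to 12.5) on X and 9.94 (9.73 to 10.2) on the autosomes, and in the list labelled total 12.3 (11.6 to 12.8) and 10.1 (9.94 to 10.3). At 1 to 5 kb outside genes the medians were 10.7 (10.1 to 12.4) and 11.2 (10.6 to 11.6) in the list labelled neuronal. In the list labelled total the order was the other way, with 11.4 (10.7 to 12.8) on X and 11.2 (10.5 to 11.7). Both pairs of intervals overlapped. Inside genes the medians were 10.8 and 10.4 in the list labelled neuronal and 11.2 and 10.5 in the list labelled total. The intervals overlapped there too.

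X sites were more often in both lists. This held for 455 of 527 (86.3%, 83.1% to 89.2%), against 78.2% on the autosomes (76.4% to 79.9%), where single chromosomes ranged from 77.2% to 79.1%. Sites of the list labelled total alone made up 10.8% on X (57 sites, 8.30% to 13.8%) and 18.3% on the autosomes, with 15.5% on IV as the lowest. Sites of the list labelled neuronal alone made up 2.85% (15 sites, 1.60% to 4.65%) and 3.56%. Over tRNA genes nearly all sites were in both lists, 94.2% on X and 95.3% on the autosomes, and without them the shares were 83.1% (78.9% to 86.8%) and 76.4% (74.5% to 78.2%).

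Fold moved with this difference. In the 25% of the list labelled total with the highest fold, every peak, on X or not, was at a site of both lists. In the weakest 25% the share was 64.2% on X (51.5% to 75.5%) and 57.5% on the autosomes (53.5% to 61.5%), in the second weakest 75.2% and 78.6%, and in the next 96.1% and 93.4%, all with overlapping intervals. The weakest 25% held 67 X peaks and the strongest 181.

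The total-only sites of highest fold on X were at vang-1, a planar cell polarity gene (12.3), gly-13 and gly-12, both N-acetylglucosaminyltransferase genes (11.6 and 11.1), F53B3.5 (11.4) and F13C5.1 (11.2). Their distances from the gene end ran from 60 to 535 bp. The neuronal-only sites of highest fold were nearest to F43E12.1 (10.2), C44C10.11 (9.06), svh-2, a receptor tyrosine kinase gene of axon regeneration (9.03), Y59E1A.4 (8.99) and F48B9.8 (8.90). None of these 10 sites overlapped a tRNA gene.

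For the 454 X sites with 1 peak in each list, the fold of the list labelled neuronal was a median 0.935 of the fold in the list labelled total, against 0.944 on the autosomes, and it was the lower of both in 86.3% of X sites and 82.9% of autosomal ones. Ranks by fold among shared sites, as percentiles, differed by a median of -0.477 points, neuronal minus total, on X and 0.136 on the autosomes. On X the differences ran from -17.6 to 21.1 points. The lowest were at acl-1, an acyltransferase gene (folds 9.62 and 11.7), gyg-1, the glycogenin gene (8.96 and 10.9), F28H6.4 (10.5 and 12.9), cab-1, a gene of neurosecretion (7.83 and 9.94), and srxa-9 (9.21 and 11.2). The highest were at ZK899.6 (10.7 and 9.64), the ABC transporter gene mrp-2 (10.3 and 9.26), Y7A5A.13 (11.0 and 10.4), ekl-5 (11.4 and 10.8) and dot-1.2, of a histone methyltransferase family (14.2 and 13.0). No theme was tested among them, and with 1 list per group these shifts have no error of their own.

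When each site was given to the protein-coding gene with the nearest end, 489 of the 2730 genes of X had a site. That is 17.9% of them, against 12.0% of autosomal genes, where single chromosomes ranged from 7.79% to 16.4%. With every gene counted whose span, widened by 1000 bp, contained a summit, the shares were 17.3% and 15.3%. Genes of X are longer, with a median of 2507.5 bp against 1946 bp. On X 36 genes had more than 1 site, and 2 genes had 3. One was unc-115, which encodes an actin-binding LIM protein of axon guidance, with a site 101 bp outside the gene (folds 12.4 and 13.3) between 2 weaker ones that each covered a tRNA gene (6.58 and 7.16, and 5.54 in the list labelled total alone). The other was C02B4.3, with folds from 6.27 to 11.8. T26C11.4, F15G9.5 and adm-2 had 2 sites each. Those of adm-2 were 776 and 5002 bp away, with folds of 18.8 and 16.7 in the list labelled neuronal.

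Among the listed genes of sex determination and dosage compensation, 4 of 6 on X and 6 of 15 on the autosomes had a site. The shares of all genes were 17.9% and 12.0%. With spans widened by 1000 bp the counts were 3 of 6 (50%) and 7 of 15 (46.7%), against 17.3% and 15.3% of all genes. The sites of sdc-2, which targets the dosage compensation complex to X, had folds of 14.1 and 17.1 (chrX:11521444-11522434, 511 bp from the gene). Those of sdc-1, of the same complex, had 13.9 and 14.6. ceh-39, an X-linked signal of sex, had a weaker site (8.85 and 9.83) that reached into the gene's end. For xol-1, the early switch gene of sex determination, the assigned site (12.4 and 13.1) lay 4598 bp away and covered the tRNA gene C18A11.t2, so it was not counted when spans widened by 1000 bp were used.

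Synaptic and pan-neuronal genes had sites at 3 of 7 X members and 21 of 36 autosomal ones, against 17.9% of all X genes and 12.0% of all autosomal genes. These shares of all genes are the background for each list that follows. On X these were syd-2, the liprin-alpha gene of the active zone (12.7 and 13.9), the dynamin gene dyn-1 (10.6 and 11.4) and, in the list labelled total alone, aex-3, which encodes an exchange factor of RAB-3 (9.91). Genes of channels, receptors and gap junctions had sites at 6 of 23 X members (26.1%) and 4 of 43 autosomal ones (9.30%), but at 2 and 2 when only widened spans counted. The channel gene unc-58 had 2 sites, both inside the gene and both over tRNA genes (16.3 and 17.2, 10.6 and 11.2). The innexin gene unc-7 (13.6 and 13.1) and the serotonin receptor gene ser-1 (12.9 and 14.0) also had theirs over tRNA genes, and so did the potassium channel gene egl-36 (9.74 and 11.0). The stomatin-like touch gene mec-2 (14.2 and 16.1, 1147 bp away) and its relative unc-1 (8.01 and 9.42) did not.

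Of 15 neuronal transcription factor genes on X only ets-5 had a site (13.9 and 16.0, over a tRNA gene), and of 45 autosomal ones 7 had one. When widened spans counted it was odr-7 instead, also over a tRNA gene. Axon guidance and adhesion genes had sites at 6 of 20 X members (30%) and 9 of 38 autosomal ones (23.7%). With widened spans the counts were 4 (20%) and 7 (18.4%), against 17.3% and 15.3% of all genes. Besides unc-115 and vang-1, sax-3, the Robo receptor gene, had a site 6501 bp away (11.4 and 13.3). Its ligand gene slt-1 (10.7 and 10.8) and the FGF gene egl-17 (12.7 and 13.1) had theirs inside the gene over tRNA genes. The syndecan gene sdn-1 had one 4294 bp away (9.47 and 10.5).

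Genes of other tissues were also among them. Body-wall muscle genes had sites at 3 of 13 X members (23.1%) and 12 of 43 autosomal ones (27.9%). Of the 4 X sites 3 were in the list labelled total alone, as were 10.8% of all X sites, and 4 sites are too few to set them apart. These were at the troponin T gene mup-2 (9.20), the myosin light chain gene mlc-2 (7.80) and inside the actin gene act-4 (7.31), while the site 106 bp outside act-4 was in both lists (7.34 and 7.65). Of 13 intestinal genes on X (7.69%) elt-2 alone had a site, as given above, and of 34 autosomal ones 2 had one (5.88%). Cuticle genes, a list chosen partly by gene name, had sites at 5 of 42 X members (11.9%) and 16 of 209 autosomal ones (7.66%), both below the shares of all genes. They were dpy-23 and dpy-22, whose products act in many tissues, the collagen genes col-181 and col-185 (12.3 and 13.1), both over tRNA genes, and cutl-21 (8.17 and 8.46).

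Nuclear hormone receptor genes had sites at 11 of 27 X members (40.7%) and 37 of 247 autosomal ones (15.0%), against the background of 17.9% and 12.0% of all genes. With widened spans the counts were 9 and 33. Besides nhr-255, whose site covered a tRNA gene, the highest were nearest to nhr-1, daf-12, the dauer receptor gene, and nhr-17. Those of nhr-1 lay 13825 and 6082 bp away (14.0 and 16.4, 13.7 and 14.8), so nhr-1 was not counted with widened spans. For daf-12 the stronger lay 6821 bp away (13.0 and 14.9), and a second, over tRNA genes, lay 640 bp away (8.86 and 9.49). That of nhr-17 lay 2648 bp away (12.8 and 14.6). The other 7 had folds from 5.65 to 11.2, and nhr-14 was in the list labelled total alone. X had just 2 germline and meiosis genes and 2 cytosolic ribosomal protein genes of the lists. None had a site by nearest end, and him-4 and rpl-11.2 had one within their widened spans. Of the autosomal members 19 of 132 (14.4%) and 30 of 77 (39.0%) had a site by nearest end, and 26 (19.7%) and 56 (72.7%) with widened spans, where the shares of all autosomal genes were 12.0% and 15.3%. With so few members per list, none of these counts is set apart by a test.

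MicroRNA genes of X overlapped sites in 8 of 73 cases (11.0%) and autosomal ones in 17.1%. let-7, a timing gene of larval development, had a site in the list labelled neuronal alone (chrX:14744323-14744846, fold 8.45), which lay within the annotated gene. mir-800 had one in the list labelled total alone (8.80). The cluster gene mir-54 overlapped a site with folds of 12.6 and 13.5, and its neighbour mir-56 a weaker one with 5.36 and 5.20. The others were mir-8196.1 (12.3 and 12.9), mir-73 (7.99 and 9.06) and the mir-239 pair, whose shared wide site is given above. For let-7 and mir-800, absence from the other list is not shown to be a difference between the nuclei.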

How the data were processed

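ATAC-seq was run on 3 samples of neuronal and 3 of total nuclei. Whether these were separate cultures is not said by the labels. The submitters' processing notes name MACS2, Bowtie2 2.2.6, cutadapt 1.9.1, bedtools 2.26, Picard and SAMtools 1.7 with build ce11, without their roles. These sources do not give depth per sample or the treatment of Tn5 shifts, duplicates, multi-mapped reads and replicates. From the authors there is 1 narrowPeak list per group, whose name gives an irreproducible discovery rate of 0.1. The deposited score is a scaled value of that rate, up to 1000. The authors' fold enrichment is a ratio to local background. The deposited −log10 p-value comes from the authors' peak caller.

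Sites, spacing and gene positions were computed with Python 3.11.15, numpy 2.4.6, pandas 2.3.3 and scipy 1.17.1, and plots with matplotlib 3.10.9. Gene positions came from a RefSeq table of WBcel235, the same assembly as ce11, with 19971 protein-coding genes and no strand, so nearest 5′ ends, as planned, became nearest ends of either kind. Chromosome length was taken as the last annotated gene end. Exons and UTRs were not analysed here, and the 9 planned motif searches need sequence and were not run. Intervals are exact binomial for shares, exact Poisson for counts per length and from order statistics for medians, at 95%. For ratios and differences between X and the autosomes only the limits of the X value were used. A count of 0 was given the upper limit of its exact binomial interval. Pileup and background were solved from fold and p under default MACS2 formulas, which add 1 read to each. Recovered pileups were whole numbers (tolerance 0.02) at 99.8% of the neuronal peaks and 99.7% of the total peaks. Site joining and this recovery were checked on simulated data. The sites, gene lists and rules for named genes were chosen with earlier results of these data known. Named genes are the 20 X sites of highest fold, the 5 widest, the genes with most sites, the leading sites of 1 list alone, those around the longest gaps and densest windows, the largest rank shifts and up to 4 members per gene list. The remaining members, and the sites with most tRNA genes, were named after their values were seen. All splits by tRNA gene, position by fold and wide sites were likewise added after seeing the data.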

Additional observations from a re-analysis of the deposited data

How the results depend on the processing

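Of 79 values with an interval recomputed under alternatives, 52 stayed within the reported interval, 26 moved outside it and 1 reversed. Of 12 counts of gene list members, which have no interval, 9 stayed within 1.5 times. The ratio of site density, X to autosomes, was 1.09 as reported and reversed to 0.856 without sites over tRNA genes. It was 1.55 in the 50% of each list with the higher fold and 1.48 counted per 1000 protein-coding genes. In that stronger 50% the X share was 24.9%, sites over tRNA genes made up 33.9% on X and 14.8% on the autosomes, tRNA genes were in a site in 55.8% and 52.4% of cases, and the width differences were -3 (-25 to 33) and -13 bp (-40.5 to 20.5). With the list labelled neuronal alone, 11.4% of autosomal peaks held a tRNA gene and the autosomal spacing was 28.0 kb. Without sites over tRNA genes the spacing was 31.7 kb on X and 25.8 kb on the autosomes, and 76.4% of autosomal sites were in both lists, which was also 76.4% with 50% reciprocal overlap. The central 50% of the length held 49.7% of X and 55.7% of autosomal sites. Near a gene end lay 41.6% and 50.1% with 500 bp outside and 100 bp inside, 70.2% and 75.0% with 2000 and 500 bp, 84.4% and 79.7% with genes of all kinds, and 65.4% and 64.0% without sites over tRNA genes. Widened spans gave 15.3% of autosomal genes a site. The fold differences stayed within their intervals under all alternatives run. For the moved values the cause was not tested, apart from settings that use fewer sites or another denominator by construction. No paired analysis was possible because there is 1 list per group with no value per sample, and samples could therefore not be left out either. Alternatives for motifs were not run.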
